A study of Mus musculus with 8 samples.

Results

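Siglecs are sialic-acid-binding receptors of the immunoglobulin superfamily that leukocytes carry on their surface. The 7 Siglec receptor genes Siglec1, Siglece, Siglecf, Siglecg, Siglech, Cd22 and Cd33 were taken by name from the 26939 genes of the joined count tables. Gene names matched 6 of them, and the identifier ENSMUSG00000039013 matched Siglecf, which the tables list under the older symbol Siglec5. Tumor-associated macrophages (TAMs), gated as F4/80+CD11b+CD45+ live cells negative for Gr-1, were taken at day 21 from EO771 tumors, a mouse mammary carcinoma line grown in the mammary fat pad of female mice aged 8 to 14 weeks. The hosts were C57BL/6J wild-type (WT) mice or Unc93b1 3d/3d mice, whose missense mutation leaves TLR3, TLR7 and TLR9 without function. Treated mice of both genotypes received 100 µg of the αMARCO antibody clone ED31, a rat IgG1, intravenously on days 3, 6, 9 and 12. The control mice are untreated in some labels, PBS in the library names and isotype-treated (clone TNP6A7) in the protocol, so their injection is not settled. The 4 groups, a control group and an αMARCO group of each genotype, hold 2 libraries each, and each control library pooled the TAMs of 3 mice. One label field of Unc93b1 3d/3d control replicate 2 gives the genotype as 3d/4d while its title gives 3d/3d, and the library was used as titled.

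Most Siglecs, among them Siglece, Siglecf, Siglecg and Cd22, carry inhibitory motifs in their cytoplasmic tails that recruit the phosphatases SHP-1 and SHP-2, encoded by Ptpn6 and Ptpn11. Siglec1, also called sialoadhesin or CD169, has a long extracellular part and no such motif, marks subsets of tissue macrophages and is inducible by type I interferon. Siglech pairs with the activating adaptor DAP12, encoded by Tyrobp, and is a marker of plasmacytoid dendritic cells. Their ligands are sialic acids on glycoproteins and glycolipids, made by sialyltransferases and removed by sialidases. In tumors, sialylated glycans that engage inhibitory Siglecs on myeloid cells are known to dampen their activation.

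By the positions in the files (GRCm38), 6 of the 7 genes lie on chromosome 7 and 1 on chromosome 2. Siglecf (43351341 to 43359531, plus strand), Siglecg (43408204 to 43418358, plus), Cd33 (43524216 to 43544428, minus) and Siglece (43651070 to 43660161, minus) form a cluster of 308.8 kb on chromosome 7. Cd22 (30865402 to 30880342, minus) and Siglech (55768178 to 55778925, plus) lie elsewhere on that chromosome, and Siglec1 lies on chromosome 2 (131069220 to 131086765, minus). The promoter windows of Siglece, Siglecg and Cd22 are shown because these members passed a test in these libraries, in different directions. The sequences are from RefSeq (GRCm38.p6), 250 bases before to 50 bases after an annotated start, written 5′ to 3′ on the gene's strand. Capitals mark GAGGAA, the core motif of PU.1 and other ETS factors of myeloid cells, or its reverse complement.
Siglece promoter (chr7:43660112-43660411, minus strand): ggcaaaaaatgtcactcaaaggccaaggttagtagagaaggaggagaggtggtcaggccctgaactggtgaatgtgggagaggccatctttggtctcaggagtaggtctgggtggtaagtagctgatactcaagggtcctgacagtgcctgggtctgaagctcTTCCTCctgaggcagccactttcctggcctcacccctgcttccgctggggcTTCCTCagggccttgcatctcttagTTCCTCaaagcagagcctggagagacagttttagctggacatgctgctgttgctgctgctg
Siglecg promoter (chr7:43407989-43408288, plus strand): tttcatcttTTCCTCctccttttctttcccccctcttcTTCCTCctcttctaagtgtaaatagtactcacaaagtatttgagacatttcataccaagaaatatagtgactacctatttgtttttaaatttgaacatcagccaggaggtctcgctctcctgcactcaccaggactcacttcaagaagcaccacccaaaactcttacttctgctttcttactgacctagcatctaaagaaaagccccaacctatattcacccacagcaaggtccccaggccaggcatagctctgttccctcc
Cd22 promoter (chr7:30878979-30879278, minus strand): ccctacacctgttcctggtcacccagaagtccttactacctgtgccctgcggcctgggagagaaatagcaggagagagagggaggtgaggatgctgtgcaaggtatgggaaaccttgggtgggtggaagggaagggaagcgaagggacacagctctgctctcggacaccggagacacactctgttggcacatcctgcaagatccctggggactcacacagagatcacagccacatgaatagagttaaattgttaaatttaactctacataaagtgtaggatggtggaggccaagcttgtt

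The Siglece window held GAGGAA 3 times, all on the reverse strand, with first bases 87, 36 and 11 bases before the start. The Siglecg window held it 2 times, 241 and 212 bases before the start, while a window at another annotated Siglecg start (chr7:43408030-43408329) held none. The Cd22 window held none, and its start lies inside the deposited gene span rather than at the end of it. RefSeq windows were matched for 6 of the 7 genes, all but Siglec1, whose promoter was therefore not searched for any motif. There were 7 windows in all because Siglecg has 2. Of these 7 windows, 5 held GAGGAA on either strand, against 28.3% of 32851 mouse promoter windows of 300 bases. The interferon-stimulated response element, searched as GAAA, any 2 bases and GAAA again, stood in 3.44% of all windows and in 0 of the 7. The NF-kB motif, searched as GGGAC followed directly by TTTCC, stood in 0.155% of all windows and also in 0 of the 7. The motifs do not overlap one another in these windows, and a match is a run of letters, not a measured binding site.

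Library totals ranged from 15182618 to 26411936 counts, at which 3 counts, the floor for detection, equal 0.114 to 0.198 CPM, counts scaled to a common library total. The floor covers counting error only, while the 95% intervals printed with fold changes are those of the edgeR fit and include the spread between libraries. All 12 macrophage markers on a fixed list were expressed, among them the sort markers Adgre1 (331 to 720 CPM) and Itgam (291 to 722 CPM). Unc93b1 was at 848 and 965 CPM in WT control and 749 and 707 CPM in WT αMARCO, against 539 and 660 CPM in Unc93b1 3d/3d control and 557 and 641 CPM in Unc93b1 3d/3d αMARCO, and the RNA level does not test a missense mutation. Unc93b1 3d/3d αMARCO replicate 2 stood apart. The replicates of that group were 132 apart as Euclidean distance over the log2 CPM of 16620 genes, against 56.1 to 74.6 in the other groups. Fold changes that include it are therefore given with and without it for the tested members other than Siglecf. For the difference of effects in Siglecg and Cd33, the range with each library left out is given.

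Levels between genes were compared as CPM per kilobase of gene length. In WT control TAMs, Siglece led with 83.9 and 99.3 CPM per kilobase, followed by Siglec1 (64.0 and 79.3), Cd33 (13.3 and 8.48), Cd22 (2.32 and 3.62) and Siglecg (2.67 and 1.41), while Siglecf (0.151 and 0.0993) and Siglech (0.0311 and 0.147) were near the floor. The libraries of Cd22 and Siglecg overlapped, as did those of Siglecf and Siglech, and the other neighbours were apart. In Unc93b1 3d/3d control TAMs the order was Siglec1 (71.9 and 59.9), Cd33 (12.6 and 17.6), Siglece (8.08 and 6.61) and Cd22 (6.20 and 5.96), so that Siglece stood below Cd33. In WT αMARCO TAMs Siglec1 led (68.6 and 59.6), with Siglece (39.2 and 42.8) below it and Cd33 (9.02 and 10.3) next. In Unc93b1 3d/3d αMARCO TAMs the Siglec1 libraries (67.0 and 15.9) overlapped those of Cd33 (20.6 and 16.4), and Siglece (9.52 and 11.2) followed. Siglec1, Siglece and Cd33 were the 3 highest members in every group.

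**Figure D1:**
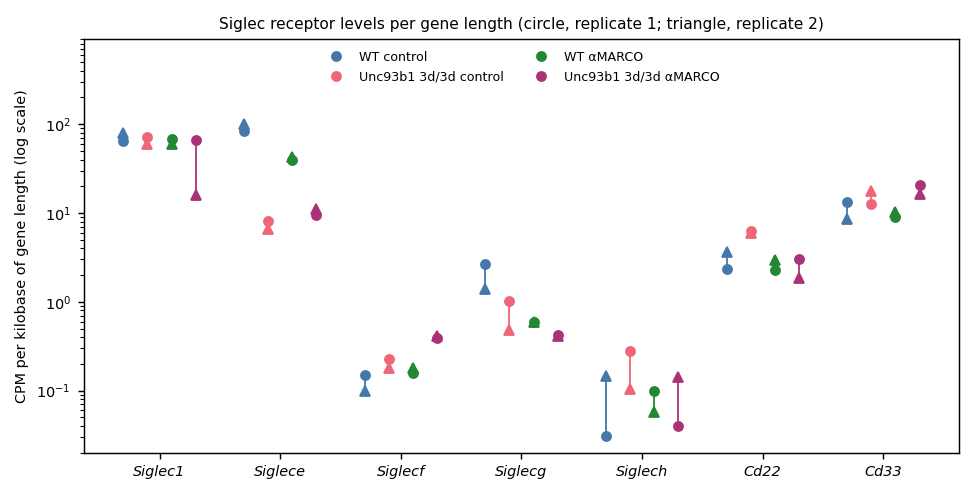
Level of each Siglec receptor gene per kilobase of gene length in the 8 libraries, on a log axis in CPM per kilobase. Colors give the 4 groups, circles replicate 1 and triangles replicate 2, joined by a line, and Siglece spans 6.61 to 99.3 CPM per kilobase between groups while Siglec1 stays between 59.6 and 79.3 in all libraries but 1.

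Over the 7 genes, the control genotypes differed in 2 of the 5 tested, where a call needs an adjusted P no larger than 0.05 with a log2 fold change of 0.5 or more in size, against 13% of 15600 genes tested. Of these 2, Siglece was higher in WT (6.58% of all genes were) and Cd22 lower (6.4%), and 3 of the 5 tested did not overlap between groups, against 63.1% of all genes. With αMARCO in WT TAMs, 2 of 5 tested were called, Siglece and Siglecg, both lower (11.8% of all genes were lower, 8.91% higher and 20.7% called in either direction), and 2 of 5 did not overlap, against 70.9%. In αMARCO-treated TAMs, edgeR called 0 of 6 tested members and 0% of 15722 genes between genotypes, while 2 members, Siglece and Cd33, were at an unadjusted P under 0.05 and DESeq2 called 1 member, Siglece, and 214 genes. There, 4 of the 6 did not overlap, Siglecf among them, against 44.3% of all genes. With αMARCO in Unc93b1 3d/3d TAMs, edgeR called 0 of 6 members and 0% of 15428 genes, 1 member, Cd22, was at an unadjusted P under 0.05, and DESeq2 called 0 members and 60 genes, while 4 of the 6 did not overlap, Siglecf among them, against 38.9% of all genes. Siglecf is the sixth member tested in these comparisons and passed the filter on low counts only through the group in which it was highest, so its place in these counts follows from the filter. For the difference of the αMARCO effects, edgeR called 0 of 6 members and 0% of 16620 genes, 2 members, Siglece and Cd22, were at an unadjusted P under 0.05, and DESeq2 called Siglece and 211 genes in all. The comparisons share libraries, each group entering 2 of the first 4, so their values stand side by side and are not independent.

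**Figure D2:**
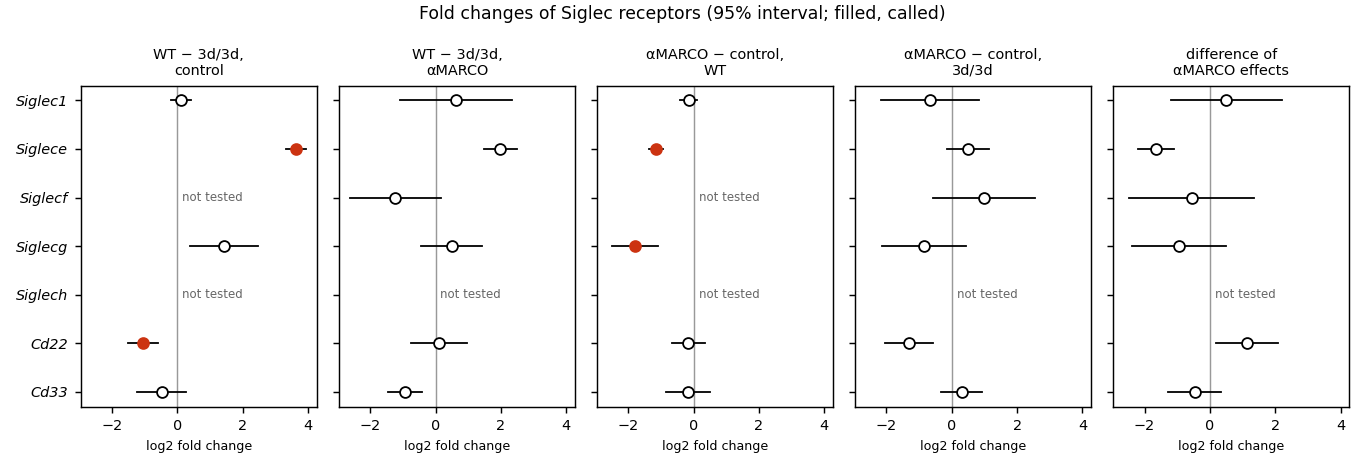
Log2 fold change of each Siglec receptor gene in the 5 comparisons, with 95% intervals from edgeR as lines, and filled red points for called genes. Siglece lies at 3.63 between control genotypes and −1.15 with αMARCO in WT TAMs, and genes that failed the filter on low counts are marked as not tested. Siglecf passed that filter only through the group in which it was highest, so its points are a description.

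Siglece, an inhibitory receptor of mouse neutrophils, monocytes and macrophages, had the largest differences between genotypes among the members tested. It was at 155 and 184 CPM in WT control, 14.9 and 12.2 CPM in Unc93b1 3d/3d control, 72.4 and 79.1 CPM in WT αMARCO, and 17.6 and 20.7 CPM in Unc93b1 3d/3d αMARCO. Both WT groups lay above both Unc93b1 3d/3d groups, the WT groups did not overlap each other, and neither did the mutant groups. These values rest on 238 to 3312 counts per library. In control TAMs, Siglece exceeded its Unc93b1 3d/3d level 12.4-fold in WT (log2 fold change 3.63 ± 0.14 SE, n = 2 per group, 95% interval 3.32 to 3.94, edgeR adjusted P = 1.73e-06). Leaving out each library in turn gave 3.48 to 3.78. Such a fit leaves 1 library in a group and cannot measure the spread of that group. In the results for each member, only effect sizes are therefore given for fits with a library left out. In WT TAMs, αMARCO was associated with a fall in Siglece by 1.15 on the log2 scale (SE 0.10, n = 2 per group, 95% interval −1.37 to −0.93, edgeR adjusted P = 0.000104), a level 0.45 times that of WT control.

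In αMARCO-treated TAMs, Siglece exceeded its Unc93b1 3d/3d level 3.97-fold in WT (log2 fold change 1.99 ± 0.19 SE, n = 2 per group), and edgeR gave an unadjusted P = 0.000138 and an adjusted P = 0.170. This difference did not pass the threshold, in a comparison in which edgeR called 0 of 15722 genes. It passed in DESeq2 (adjusted P = 1.31e-09) and when all 8 libraries were fitted in 1 edgeR model (adjusted P = 0.00358). Without Unc93b1 3d/3d αMARCO replicate 2 the value was 2.11, and without replicate 1 it was 1.88. In Unc93b1 3d/3d TAMs, Siglece was at a log2 fold change of 0.50 ± 0.26 SE with αMARCO (n = 2 per group, 95% interval −0.14 to 1.15, edgeR adjusted P = 0.823). The value was 0.63 without Unc93b1 3d/3d αMARCO replicate 1 and 0.38 without replicate 2. Both αMARCO libraries of that genotype lay above both control libraries, the opposite of the order in WT. The difference of the αMARCO effects between genotypes was −1.66 ± 0.24 SE on the log2 scale (n = 2 per group, edgeR unadjusted P = 0.000112, adjusted P = 0.281). It was −1.55 without Unc93b1 3d/3d αMARCO replicate 2 and −1.78 without replicate 1.

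**Figure D3:**
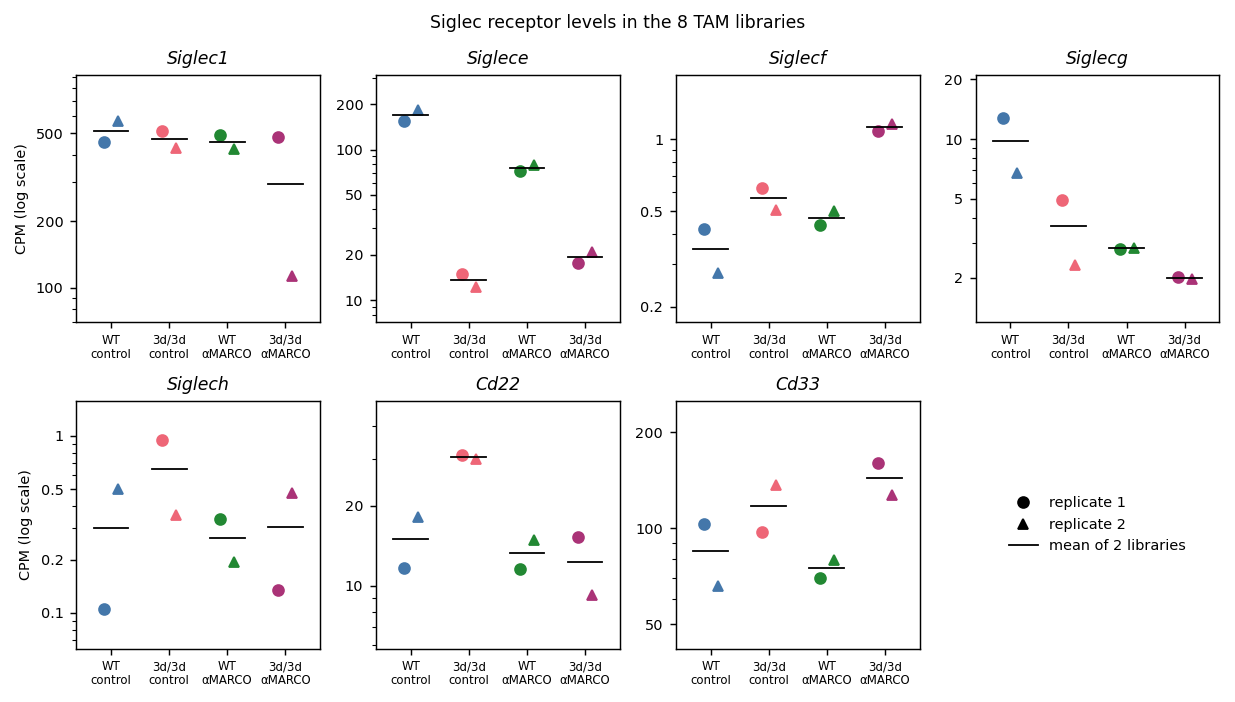
CPM of each Siglec receptor gene in the 8 TAM libraries, with 1 panel per gene and a log axis that differs between panels. Circles are replicate 1, triangles replicate 2 and bars the mean of 2 libraries, and Siglece falls from 155 and 184 CPM in WT control to 14.9 and 12.2 CPM in Unc93b1 3d/3d control, while Siglec1 has 1 low library at 114 CPM.

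Marker genes of nonclassical monocytes, which patrol vessels and resemble some tissue macrophages, were summed beside Siglece. The sum over the 10 listed markers was 1760 and 1757 CPM in WT control, 687 and 552 CPM in Unc93b1 3d/3d control, 1559 and 1730 CPM in WT αMARCO, and 943 and 1143 CPM in Unc93b1 3d/3d αMARCO. In control TAMs, 5 of the 10 tested were higher in WT and 1 was lower, with a median log2 fold change of 1.35 against −0.0036 over all tested genes. Of all genes, 6.58% were higher in WT and 6.4% lower, and with αMARCO in WT TAMs 8.91% rose and 11.8% fell. The receptor gene Cd300e went from 557 and 616 CPM in WT control to 10.04 and 7.56 CPM in Unc93b1 3d/3d control (edgeR adjusted P = 1.08e-07), and the transcription factor gene Pou2f2 from 213 and 252 CPM to 57.9 and 52.7 CPM (edgeR adjusted P = 1.12e-05). The 1 lower in WT was Cx3cr1, the fractalkine receptor gene that marks these cells, at 14.8 and 16.6 CPM against 24.7 and 34.0 CPM (edgeR adjusted P = 0.00707), named after its values were seen. In WT TAMs with αMARCO, 4 of the 10 fell, Cd300e to 254 and 267 CPM (edgeR adjusted P = 6.78e-05), Adgre4 and Spn among them, and 1 rose, Nr4a1 (749 and 862 CPM against 582 and 476 CPM, edgeR adjusted P = 0.00378). Pou2f2, at 287 and 303 CPM there, lay above both control libraries while Siglece lay below its own (log2 fold change 0.35, edgeR adjusted P = 0.0187, short of the fold change a call needs). No list marker was at 0 throughout. The part of this cell type in the Siglece result was not tested, and in bulk libraries fewer cells of a type cannot be told apart from less RNA per cell.

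**Figure D4:**
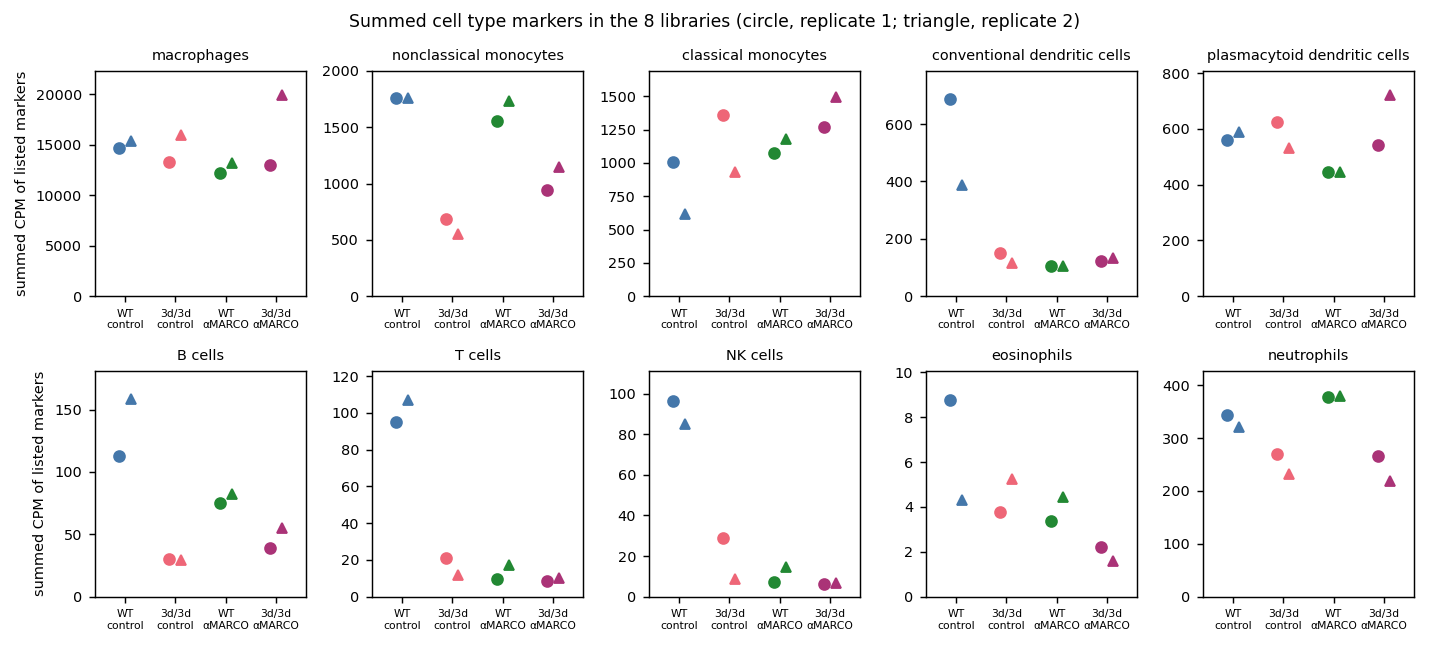
Summed CPM of the listed marker genes of 10 cell types in the 8 libraries, with linear axes from 0 that differ between panels, circles for replicate 1 and triangles for replicate 2. Conventional dendritic cell, T cell and NK cell markers are highest in the WT control libraries (dendritic cells 388 and 686 CPM against 107 to 150 CPM elsewhere), and nonclassical monocyte markers are higher in both WT groups than in both Unc93b1 3d/3d groups.

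Siglecg, an inhibitory Siglec of B cells and dendritic cells that binds sialylated CD24, was low. It had 12.8 and 6.76 CPM in WT control, 4.96 and 2.33 CPM in Unc93b1 3d/3d control, 2.81 and 2.82 CPM in WT αMARCO, and 2.03 and 1.97 CPM in Unc93b1 3d/3d αMARCO, on 29 to 244 counts. The WT control libraries were the highest 2 and stood well apart from each other, and the Unc93b1 3d/3d control libraries reached from above to below those of WT αMARCO. In WT TAMs Siglecg fell by 1.79 on the log2 scale with αMARCO (SE 0.31, n = 2 per group, edgeR adjusted P = 0.00262), to 0.289 times the control level. It lost the call when all 8 libraries were fitted in 1 model (edgeR adjusted P = 0.0929). In control TAMs its log2 fold change was 1.43 ± 0.44 SE between WT and Unc93b1 3d/3d (n = 2 per group, 95% interval 0.39 to 2.47, edgeR adjusted P = 0.0649), short of the threshold. DESeq2 gave an adjusted P of 0.00854 for it. Leaving out each library in turn gave 0.90 to 2.06. In αMARCO-treated TAMs it differed between genotypes by 0.49 ± 0.37 SE, and in Unc93b1 3d/3d TAMs by −0.85 ± 0.53 SE with αMARCO (n = 2 per group, edgeR adjusted P = 0.710 and 0.823). Without Unc93b1 3d/3d αMARCO replicate 2 these were 0.47 and −0.83. The difference of the αMARCO effects was −0.94 ± 0.62 SE (n = 2 per group, edgeR adjusted P = 0.433), and −1.58 to −0.41 with each library left out in turn.

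Markers of conventional dendritic cells stood highest in the same WT control libraries. The 10 listed markers summed to 686 and 388 CPM in WT control, 150 and 117 CPM in Unc93b1 3d/3d control, 107 and 107 CPM in WT αMARCO, and 123 and 132 CPM in Unc93b1 3d/3d αMARCO. Of the 10 tested, 3 were higher in WT control than in Unc93b1 3d/3d control and 5 fell with αMARCO in WT, with none moving the other way in these comparisons. Of all genes, 6.58% were higher in WT control and 11.8% fell with αMARCO in WT. Between control genotypes, Cd8a, among the 3, passed the filter on low counts only through WT control. The chemokine receptor gene Ccr7, which mature dendritic cells use to migrate, was at 214 and 119 CPM in WT control and 10.6 and 16.5 CPM in WT αMARCO (edgeR adjusted P = 0.0291). Zbtb46, a transcription factor gene of the conventional dendritic cell lineage, was at 28.5 and 14.7 CPM in WT control and 2.81 and 3.16 CPM in WT αMARCO (edgeR adjusted P = 0.00161). Both were higher in WT control replicate 1, the library in which Siglecg was also higher. Of the other listed markers, Xcr1 (8.68 and 9.20 CPM), Clec9a (1.42 and 2.16 CPM) and Cd8a (15.7 and 20.3 CPM) were lower in WT control replicate 1 than in replicate 2. The rest were higher there, and Ccr7 and Fscn1 (288 and 153 CPM) make up most of the WT control sums. The part of dendritic cells in the Siglecg result was not tested.

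T cell and NK cell markers were also highest in WT control. The 10 T cell markers summed to 95.2 and 107 CPM in WT control, 20.8 and 11.9 CPM in Unc93b1 3d/3d control, 9.75 and 17.1 CPM in WT αMARCO, and 8.57 and 10.1 CPM in Unc93b1 3d/3d αMARCO, and all 10 were called higher in WT control and lower in WT αMARCO. The 8 NK cell markers summed to 96.7 and 85.0 CPM in WT control and 6.36 to 28.9 CPM in the other libraries, with 2 of 8 tested higher in WT control and 4 of 7 tested lower in WT αMARCO. Of all genes, 6.58% were higher in WT control than in Unc93b1 3d/3d control, and 11.8% were lower in WT αMARCO than in WT control. Neutrophil markers summed to 343 and 322 CPM in WT control and 219 to 380 CPM elsewhere. Most of it came from Csf3r, at 262 and 279 CPM in WT control and 357 and 354 CPM in WT αMARCO. Of 8 tested, 1 was called higher in WT control than in Unc93b1 3d/3d control, and all 8 had a log2 fold change above 0. In WT αMARCO, 3 of 6 tested were lower than in WT control, with a median log2 fold change of −2.79 over the 6. Ltf went from 4.37 and 5.38 CPM to 0.291 and 0.270 CPM, and Ly6g was at 0.135 to 0.842 CPM over the libraries. Some markers of these 3 lists, Ltf, Klre1 and Cd28 among them, passed the filter on low counts only through WT control. The counts called and the median of such a list therefore follow in part from the filter. The part of these cells in any Siglec result was not tested.

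Cd22, the inhibitory coreceptor of the B cell receptor that microglia and other macrophages can also express, went the other way from Siglece. It was at 11.7 and 18.2 CPM in WT control, 31.3 and 30.0 CPM in Unc93b1 3d/3d control, 11.6 and 14.9 CPM in WT αMARCO, and 15.3 and 9.25 CPM in Unc93b1 3d/3d αMARCO. The Unc93b1 3d/3d control libraries were the highest 2, and the other 6 libraries overlapped. In control TAMs, Cd22 was lower in WT than in Unc93b1 3d/3d by a log2 fold change of −1.05 ± 0.20 SE, n = 2 per group, so that the mutant was 2.07-fold higher (95% interval −1.504 to −0.598, edgeR adjusted P = 0.00935). Leaving out each library in turn gave −1.40 to −0.75, and the call was lost with all 8 libraries in 1 model (−1.04, edgeR adjusted P = 0.141). Under αMARCO its level in Unc93b1 3d/3d TAMs had a log2 fold change of −1.31 ± 0.31 SE (n = 2 per group, edgeR unadjusted P = 0.00515, adjusted P = 0.823). The value was −0.996 without Unc93b1 3d/3d αMARCO replicate 2 and −1.71 without replicate 1. In WT TAMs it was at −0.16 ± 0.22 SE with αMARCO (n = 2 per group, edgeR adjusted P = 0.605), in αMARCO-treated TAMs at 0.11 ± 0.33 SE between genotypes (edgeR adjusted P = 0.909), and the difference of the αMARCO effects was 1.14 ± 0.42 SE (edgeR unadjusted P = 0.0261, adjusted P = 0.318). Without Unc93b1 3d/3d αMARCO replicate 2 the last 2 values were −0.20 and 0.82, and without replicate 1 they were 0.53 and 1.56.

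B cell markers differed among themselves in their order between control genotypes. The 12 listed markers summed to 113 and 158 CPM in WT control, 30.0 and 29.0 CPM in Unc93b1 3d/3d control, 75.3 and 82.2 CPM in WT αMARCO, and 38.8 and 55.3 CPM in Unc93b1 3d/3d αMARCO. In control TAMs, 3 of 6 tested were higher in WT, namely Cd79b (36.6 and 41.2 CPM against 2.26 and 2.89 CPM), Ighm (71.5 and 112 CPM against 20.3 and 21.6 CPM) and Ighd, and none was lower. Of all genes, 6.58% were higher. Ighd passed the filter on low counts only through WT control, so its place in this count follows from the filter. Cd79b and Ighm make up most of the sum. Pax5, a transcription factor gene of the B cell lineage, was at 0.526 and 0.887 CPM in WT control against 2.20 and 0.964 CPM in Unc93b1 3d/3d control, and Fcrla at 1.16 and 1.05 CPM against 1.95 and 2.18 CPM, the same order as Cd22, though neither was called (edgeR adjusted P = 0.205 and 0.156). Ms4a1, encoding CD20, overlapped between the control groups (1.37 and 0.499 CPM against 1.51 and 0.355 CPM). In Unc93b1 3d/3d αMARCO, Pax5 was at 3.02 and 0.272 CPM and Fcrla at 2.12 and 2.99 CPM. Neither lay below its Unc93b1 3d/3d control libraries in both replicates, as Cd22 did. Pax5, Fcrla and Ms4a1 were named after their values were seen. The B cell receptor component Cd79a (0.0680 to 0.617 CPM) was near the floor in all libraries, and Cr2, Blk, Ebf1 and Fcer2a each had libraries at 0.

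Siglec1 was expressed at a near constant level in 7 of the 8 libraries. It was at 457 and 566 CPM in WT control, 513 and 428 CPM in Unc93b1 3d/3d control, 490 and 426 CPM in WT αMARCO, and 479 and 114 CPM in Unc93b1 3d/3d αMARCO. The 7 libraries overlapped between groups, and the low value came from the library that stood apart over all genes. The log2 fold change between WT and Unc93b1 3d/3d was 0.10 ± 0.13 SE in control TAMs (n = 2 per group, 95% interval −0.20 to 0.41, edgeR adjusted P = 0.634), an interval that leaves room for differences up to 0.41 on the log2 scale. With αMARCO in WT TAMs it was −0.15 ± 0.12 SE (n = 2 per group, 95% interval −0.42 to 0.11, edgeR adjusted P = 0.344). In αMARCO-treated TAMs the value was 0.63 ± 0.66 SE between genotypes (n = 2 per group, edgeR adjusted P = 0.754), and that one library decided it. Without Unc93b1 3d/3d αMARCO replicate 2 it was −0.062, and without replicate 1 it was 2.02. The αMARCO effect in Unc93b1 3d/3d TAMs moved likewise, with −0.67 over both libraries (n = 2 per group, edgeR adjusted P = 0.824), 0.025 without replicate 2 and −2.04 without replicate 1. The difference of the αMARCO effects was 0.51 ± 0.74 SE (n = 2 per group, edgeR adjusted P = 0.718), −0.20 without replicate 2 and 1.89 without replicate 1.

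Interferon-stimulated genes were measured beside Siglec1. The 20 listed genes summed to 5988 and 6006 CPM in WT control, 7411 and 5837 CPM in Unc93b1 3d/3d control, 6694 and 6794 CPM in WT αMARCO, and 7276 and 7076 CPM in Unc93b1 3d/3d αMARCO. In control TAMs, 1 of 20 was lower in WT, where 6.4% of all genes were, and none higher, namely Rsad2 (276 and 274 CPM against 466 and 350 CPM, edgeR adjusted P = 0.0203). In treated WT TAMs, 3 of 20 rose, where 8.91% of all genes did, Oas2, Oasl2 and Stat2, by log2 fold changes of 0.66, 0.61 and 0.61 (edgeR adjusted P = 0.000825, 0.000695 and 0.000976).

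Cd33, a Siglec of myeloid cells, was at 104 and 65.9 CPM in WT control, 97.6 and 137 CPM in Unc93b1 3d/3d control, 70.1 and 79.8 CPM in WT αMARCO, and 160 and 128 CPM in Unc93b1 3d/3d αMARCO. The genotypes overlapped in the control groups and did not in the αMARCO groups, where both Unc93b1 3d/3d libraries were higher. The log2 fold change between WT and Unc93b1 3d/3d was −0.48 ± 0.28 SE in control TAMs (n = 2 per group, 95% interval −1.23 to 0.26, edgeR adjusted P = 0.307) and −0.94 ± 0.21 SE in αMARCO-treated TAMs (n = 2 per group, edgeR unadjusted P = 0.00604, adjusted P = 0.470). Neither passed the threshold. The αMARCO-treated value was −1.09 without Unc93b1 3d/3d αMARCO replicate 2 and −0.76 without replicate 1. The control value was −0.84 to −0.19 with each library left out in turn. With αMARCO the value was −0.17 ± 0.24 SE in WT TAMs (edgeR adjusted P = 0.637) and 0.30 ± 0.26 SE in Unc93b1 3d/3d TAMs (edgeR adjusted P = 0.823), with n = 2 per group. The latter was 0.45 without Unc93b1 3d/3d αMARCO replicate 2. The difference of the αMARCO effects was −0.47 ± 0.36 SE (n = 2 per group, edgeR adjusted P = 0.484), and −0.77 to −0.11 with each library left out in turn.

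Siglecf, an inhibitory receptor of eosinophils and alveolar macrophages, had 5 to 24 counts per library. It was at 0.421 and 0.277 CPM in WT control, 0.628 and 0.507 CPM in Unc93b1 3d/3d control, 0.437 and 0.501 CPM in WT αMARCO, and 1.08 and 1.16 CPM in Unc93b1 3d/3d αMARCO. All values were above the floor, and the highest 2 were those of Unc93b1 3d/3d αMARCO. It passed the filter on low counts only in fits that include that group and was called in none, and since the filter itself turned on that group its levels are given as a description, with no test. The listed eosinophil markers analysed here summed to 8.79 and 4.32 CPM in WT control, 3.77 and 5.23 CPM in Unc93b1 3d/3d control, 3.35 and 4.44 CPM in WT αMARCO, and 2.21 and 1.56 CPM in Unc93b1 3d/3d αMARCO. They were lowest where Siglecf was highest, 2 of them were tested and none was called, and Prg2 was at 0 to 0.105 CPM.

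Siglech had 2 to 15 counts per library, at 0.105 and 0.499 CPM in WT control, 0.942 and 0.355 CPM in Unc93b1 3d/3d control, 0.340 and 0.193 CPM in WT αMARCO, and 0.135 and 0.476 CPM in Unc93b1 3d/3d αMARCO. The groups overlapped, 1 library was under the floor of 3 counts, and the gene passed the filter in no comparison, so a difference was not detectable at this depth. The 11 plasmacytoid dendritic cell markers summed to 444 to 721 CPM over the libraries, most of it from Bst2, Tcf4, Ptprs and Runx2, which other cells also express. Of the 9 tested in control TAMs, 1 was higher in WT, where 6.58% of all genes were. This was Spib, at 5.58 and 2.83 CPM against 0.439 and 0.457 CPM. In treated WT TAMs 2 of 9 fell, where 11.8% of all genes did. Bst2 went from 382 and 418 CPM to 264 and 261 CPM (edgeR adjusted P = 0.000813), and Spib was at 0.194 and 0.154 CPM. Spib passed the filter on low counts only through WT control. Its place in these counts follows from the filter, and its levels are given as a description. The defining genes Ly6d (0 to 0.152 CPM) and Klk1 (0 to 0.111 CPM) were at or near 0.

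Signalling partners of such receptors, inhibitory and activating ones together, were called in both directions between control genotypes. Of 13 listed partners tested in control TAMs, 3 were higher in WT and 1 was lower, with a median log2 fold change of 0.28 against −0.0036 over all tested genes. A log2 fold change above 0 was found for 11 of the 13. Of all genes, 6.58% were higher and 6.4% lower. Among the phosphatase genes not called, Inpp5d was at 369 and 359 CPM in WT control against 432 and 451 CPM in Unc93b1 3d/3d control. Ptpn11, encoding SHP-2, was at 83.2 and 84.4 CPM against 79.1 and 83.5 CPM. Ptpn6, encoding SHP-1, was at 686 and 800 CPM in WT control and 394 and 438 CPM in Unc93b1 3d/3d control (log2 fold change 0.82, edgeR adjusted P = 0.00188). Socs3, a feedback inhibitor of cytokine signalling, was at 837 and 869 CPM against 471 and 458 CPM (0.86, edgeR adjusted P = 0.000678), and Lyn, the kinase that phosphorylates the inhibitory motifs, at 624 and 697 CPM against 457 and 465 CPM (0.50, edgeR adjusted P = 0.0102). The ubiquitin ligase gene Cbl was lower in WT (206 and 216 CPM against 335 and 309 CPM, edgeR adjusted P = 0.00321) and rose with αMARCO in WT TAMs to 317 and 297 CPM (edgeR adjusted P = 0.00105). It was the only call among the 13 there, where 20.7% of all genes were called. Tyrobp, the adaptor of Siglech, was at 667 and 675 CPM in WT control and 479 to 807 CPM elsewhere, and it was not called.

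Genes that make and remove the sialic acid ligands in the sorted cells themselves were called in a few cases. Of all genes tested, 13% were called between control genotypes and 20.7% with αMARCO in WT TAMs. Of 9 genes of sialic acid synthesis and activation tested in control TAMs, 1 was lower in WT, Npl, the lyase that breaks down free sialic acid, at 9.16 and 3.44 CPM against 38.4 and 49.1 CPM (log2 fold change −2.80, edgeR adjusted P = 0.0289). In treated WT TAMs, 1 of 9 fell, the sialic acid synthase gene Nans, from 82.3 and 69.9 CPM to 50.3 and 47.9 CPM (edgeR adjusted P = 0.00129). Of 13 sialyltransferases tested in control TAMs, 1 was higher in WT and 2 were lower, with a median log2 fold change of 0.19. St3gal6 was higher (13 and 17.3 CPM against 8.29 and 7.91 CPM, edgeR adjusted P = 0.0166), while St6gal1, whose products are the preferred ligands of Cd22, was lower (21.0 and 16.4 CPM against 27.4 and 32.3 CPM, edgeR adjusted P = 0.0164), as was St6galnac6 (22.3 and 19.2 CPM against 26.4 and 31.8 CPM, edgeR adjusted P = 0.0386). With αMARCO in WT TAMs, 3 of 13 fell and none rose: St3gal6 to 6.75 and 7.10 CPM (edgeR adjusted P = 0.00185), St6gal1 to 9.95 and 12.4 CPM (edgeR adjusted P = 0.00977) and St3gal3 from 13.1 and 12.0 CPM to 8.74 and 8.76 CPM (edgeR adjusted P = 0.0350). The 2 sialidase genes tested, Neu1 and Neu3, were not called, with Neu1 at 120 to 177 CPM.

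Of 6 sialylated proteins known as Siglec ligands or carriers, all tested in control TAMs, 3 were higher in WT, where 6.58% of all genes were, and none was lower, with a median log2 fold change of 0.58. These were Spn, encoding the mucin CD43 (133 and 165 CPM against 20.5 and 21.2 CPM, edgeR adjusted P = 3.02e-06), Cd52 (487 and 496 CPM against 292 and 339 CPM, edgeR adjusted P = 0.00434) and Ptprc, encoding CD45 (1199 and 1311 CPM against 902 and 813 CPM, edgeR adjusted P = 0.0109). With αMARCO in WT TAMs, 2 of 6 fell, where 11.8% of all genes did. These were Spn, to 53.3 and 61.3 CPM (edgeR adjusted P = 0.000153), and Cd24a, the Siglecg ligand CD24, from 15.6 and 9.64 CPM to 6.99 and 6.25 CPM (edgeR adjusted P = 0.0144). Spn also stands on the nonclassical monocyte list. The other Siglec gene analysed, Mag, a myelin receptor, was at 6.27 to 10.6 CPM and was called in no comparison.

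Macrophage markers summed to 12165 to 19929 CPM, with the highest sum in Unc93b1 3d/3d αMARCO replicate 2. In control TAMs, 1 of 12 was higher in WT (Itgam) and 3 were lower, among them Mertk, an efferocytosis receptor gene, at 69.5 and 67.8 CPM against 167 and 168 CPM (edgeR adjusted P = 4.51e-05). With αMARCO in WT TAMs, 1 of 12 rose and 4 fell, including C1qa, C1qb and C1qc of the complement component C1q. Of all genes, 6.58% were higher and 6.4% lower in WT control, and 8.91% rose and 11.8% fell with αMARCO in WT. Of 8 classical monocyte markers, 2 were lower in WT control than in Unc93b1 3d/3d control and 2 rose with αMARCO in WT, F13a1 and Ccr2 in both. Of the tumor epithelial markers tested, 0 of 3 were called in control TAMs and 2 of 3 fell with αMARCO in WT TAMs, Krt8 and Epcam, with Krt8 at 22.4 to 42.3 CPM over the libraries. Epcam passed the filter on low counts only through WT control, so its place in this count follows from the filter.

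The genes most alike to each member but Siglech, which failed the filter on low counts over the 8 libraries, were ranked by Pearson correlation of log2 CPM over the 8 libraries among 13686 genes, as a description, since the 8 points fall into 4 groups and share the same libraries. For Siglece these were Nxpe4 (r = 0.995), Ptpn22 (r = 0.995) and Fpr2 (r = 0.992). Nxpe4 was at 49.6 and 53.9 CPM in WT control, 9.42 and 8.93 CPM in Unc93b1 3d/3d control, 33.8 and 32.5 CPM in WT αMARCO, and 12.3 and 14.1 CPM in Unc93b1 3d/3d αMARCO, the same order of groups as Siglece. For Cd22 they were Tlr7 (r = 0.986), Mthfd2l (r = 0.963) and Igf1 (r = 0.961), with Tlr7 at 67.4 and 82.2 CPM in WT control, 103 and 102 CPM in Unc93b1 3d/3d control, 70.9 and 73.9 CPM in WT αMARCO, and 82.2 and 62.5 CPM in Unc93b1 3d/3d αMARCO. For Siglecg they were Bcl2l14, Lmnb1 and Zbtb46 (each r = 0.976 or 0.977), and for Cd33 Sulf2 (r = 0.962), March3 and Vipr1 (each r = 0.955). For Siglecf they were Zfp810 (r = 0.989), Gpr141 (r = 0.980) and Amz1 (r = 0.979). For Siglec1 they were Crkl, Lnpep and C2cd3 (r = 0.988 to 0.989), each of which was lowest in Unc93b1 3d/3d αMARCO replicate 2, with Lnpep at 31.4 CPM there and 132 to 171 CPM in the other 7 libraries.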

How the data were processed

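RNA-seq of 8 libraries of sorted TAMs was analysed. The authors cleaned paired-end poly-A reads with fastp, used HISAT2 2.0.5 for alignment to GRCm38 and featureCounts 1.5.0 for counts per gene, and the strand setting and annotation release were not given in the sources used here. The deposited raw counts carry no normalization and were the only values used, with gene lengths as the authors listed them. The deposited normalized signal (counts over a DESeq2 1.40.2 size factor), the deposited FPKM values, and the authors' own log2 fold changes and p-values with adjusted p-values were not used. The 3 tables, each of 4 libraries, were joined by gene identifier into 26939 genes, 95230 counts present in more than 1 table were compared and 0 differed, and genes absent from a table were set to 0 counts.

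Tests used edgeR 4.0.16 in R 4.3.3 (TMM, filterByExpr with a minimum count of 10, robust quasi-likelihood test, Benjamini-Hochberg adjustment over all tested genes) on the 4 libraries of each comparison, and on all 8 for the difference of effects. A call needed an adjusted P no larger than 0.05 with a log2 fold change of 0.5 or more in size. For CPM, TMM factors were set over the 8 libraries together. SE is that of the fitted log2 fold change. P values measure the spread between 2 libraries per group, pooled from 3 mice each in the control groups. The procedure was tested on simulated data.

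Members and gene lists were chosen with earlier results of these data known. All 7 members are named, with, for each list and comparison, up to 4 called genes of largest change whose groups do not overlap (not all of these are printed), further listed genes to describe a list, and, for each of the 6 members that passed the filter over all 8 libraries, the 3 genes of highest correlation of log2 CPM (prior count 2) with a mean of at least 1 CPM. The alternatives were DESeq2 1.42.0, its size factors in edgeR, no filter beyond 1 count, 1 model of all 8 libraries, at least 10 counts in every library, a replicate block, no fold change threshold, and each library left out in turn, where the lone library of a group is assumed to vary like the other group.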

Additional observations from a re-analysis of the deposited data

Results flagged for a closer look

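The order of the αMARCO and control libraries for Siglece was opposite in the genotypes. In WT, both αMARCO libraries (72.4 and 79.1 CPM) lay below both control libraries (155 and 184 CPM), and in Unc93b1 3d/3d both αMARCO libraries (17.6 and 20.7 CPM) lay above both control libraries (14.9 and 12.2 CPM). The mutant's own log2 fold change was 0.50 with a 95% interval of −0.14 to 1.15 (edgeR adjusted P = 0.823), so its sign is not settled. The difference of the effects, tested as an interaction in edgeR over all 8 libraries, was −1.66 ± 0.24 SE on the log2 scale, with an unadjusted P of 0.000112 and an adjusted P of 0.281. DESeq2 gave −1.62 (adjusted P = 0.000101). Leaving out each library in turn gave −1.81 to −1.52.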

How the results depend on the processing

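Depth limits Siglech and Siglecf (2 to 24 counts per library), and 2 libraries per group limit every test. Beside the 2 members called between control genotypes and the 2 called with αMARCO in WT TAMs, 1 was called in each with all 8 libraries in 1 model, where the counts over all genes went from 2025 to 364 and from 3236 to 164. Between control genotypes, 3 were called (Siglecg added) with DESeq2, without a filter beyond 1 count and with the replicate block. In αMARCO-treated TAMs, in place of 0 members, 1 was called with DESeq2, without a filter beyond 1 count, with all 8 libraries in 1 model and with the replicate block, and 0 to 4 with a library left out. In Unc93b1 3d/3d TAMs with αMARCO, 1 was called (Cd22) without a filter beyond 1 count. For the difference of effects, 1 was called (Siglece) with DESeq2 and without a filter beyond 1 count. The range with a library left out is printed for αMARCO-treated TAMs only and does not measure how stable the calls are. Its upper end came from the fit without Unc93b1 3d/3d αMARCO replicate 1, where the library that stood apart was alone in its group. Other counts of calls with a library left out are not given. Such a fit leaves 1 library in a group, and the spread between the 2 libraries of that group then leaves the estimate.

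Directions changed only with a library left out, and for no called value. The ranges were −0.048 to 0.26 for Siglec1 between control genotypes, −0.062 to 2.02 for Siglec1 and −0.20 to 0.53 for Cd22 in αMARCO-treated TAMs, −0.30 to 0.0041 for Siglec1, −0.45 to 0.19 for Cd22 and −0.46 to 0.19 for Cd33 with αMARCO in WT TAMs, −2.04 to 0.025 for Siglec1 with αMARCO in Unc93b1 3d/3d TAMs, and −0.20 to 1.89 for Siglec1 in the difference of effects. Of all results recomputed, 11 changed direction.

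The replicate numbers are shared between groups, but no label says that a number marks a shared animal, batch or day. The correlation of the deviations of same-numbered libraries was 0.0096 between control genotypes, 0.14 in αMARCO-treated TAMs, −0.00098 with αMARCO in WT and 0.11 in Unc93b1 3d/3d. With the replicate block, members called went from 2 to 3 between control genotypes (Siglecg added, edgeR adjusted P = 0.000396) and from 0 to 1 in αMARCO-treated TAMs (Siglece, edgeR adjusted P = 0.00435), and stayed at 2, 0 and 0 in the other comparisons.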
